A study of Mus musculus with 4 samples.

Results

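The 9 genes described here encode transcription factors that set up and maintain the epithelium of the pancreas: Pdx1, Sox9, Hnf4a, Onecut1, Foxa2, Foxa3, Gata6, Ptf1a and Nkx6-1. They were taken by symbol from a table of 38921 gene intervals, and each symbol had 1 row. RNA came from cultured mouse pancreatic fibroblasts in 4 libraries (wild type 1 and 2, KPC 1 and 2), all of mixed strain. Cells of both groups were isolated by a modified gravity separation and grown in DMEM with 10% FBS at 37 °C and 7% CO2. KPC is the usual name of a pancreatic cancer model in which mutant alleles, Trp53 among them, are switched on by Cre under a Pdx1 promoter, that is, in the pancreatic epithelial lineage and not in fibroblasts as such. The labels give the name KPC alone, with no age, animal or culture, and call the libraries biological replicates. The p-values therefore measure the spread between these libraries. Whether that is a spread between animals or between cultures is not given.

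The pancreas arises from foregut endoderm, where the forkhead factors FOXA1 and FOXA2 open chromatin ahead of other regulators and GATA6 acts beside them. PDX1, PTF1A, SOX9 and ONECUT1 mark the multipotent progenitor. Later PTF1A is kept in acinar cells, PDX1 and NKX6-1 in beta cells, and SOX9 and ONECUT1 in duct cells, while HNF4A is best known from liver, gut and islets. Cultured fibroblasts are mesenchymal and are not the usual site of this programme, although GATA6 is also known from mesothelium and heart and SOX9 from cartilage.

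Counts summed to 53232634 and 22302141 in wild type 1 and 2 and to 57926327 and 68312367 in KPC 1 and 2, so wild type 2 was the shallowest. Levels are CPM, counts scaled to library size with TMM factors, and intervals are exact 95% Poisson intervals that cover counting error only. For a count of 0 the interval starts at 0, and its upper end is given. The fibroblast identity of all 4 libraries was visible in collagen genes. All 11 fibroblast markers had counts in every library, and together they summed to between 10351 (KPC 1) and 12906 CPM (wild type 1). Their leading genes were Col1a1 (4086 to 5243 CPM), Col1a2 (2312 to 2879 CPM) and Vim (1697 to 3694 CPM). These leading genes make up most of the sum, which does not show the lower markers. Among those, Dcn (14.4 to 63.1 CPM) and Lum (0.171 to 7.34 CPM) were uneven, and Thy1 (89.3 to 216 CPM) less so. All 11 were tested, 6 with a positive and 5 with a negative log2 fold change (median 0.06), 1 with an unadjusted p under 0.05, and edgeR called 0. Trp53 had 34.2 and 29.1 CPM in the wild type libraries against 22.8 and 16.7 CPM in the KPC libraries, with mutant and normal alleles counted together. Where 4 values follow each other below, their order is wild type 1, wild type 2, KPC 1, KPC 2.

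Sequences around the start sites of Pdx1, Hnf4a and Foxa2 are shown for reference. These genes were chosen after their values were seen, from those that stood far apart between the KPC libraries. The counts are per gene interval and do not place reads relative to these sites. The sequences are RefSeq windows on GRCm38.p6 of 250 bases before and 50 after a start site. In the table used, 7 of the 9 genes have such windows. Hnf4a is shown at both of its promoters, since the deposited interval spans both and its counts do not tell them apart. Capitals mark matches, on either strand, to 4 words that stand for binding motifs. The word for FOXA factors was TGTTTAC, present in 3.65% of 32817 such windows in the mouse genome. The word for HNF4 was CAAAGTCC (1.42% of windows). The word for GATA factors was AGATAA (11.2% of windows), and the word for homeodomain factors was TAATTA (5.30% of windows).
Pdx1, chr5:147269847-147270146, plus strand: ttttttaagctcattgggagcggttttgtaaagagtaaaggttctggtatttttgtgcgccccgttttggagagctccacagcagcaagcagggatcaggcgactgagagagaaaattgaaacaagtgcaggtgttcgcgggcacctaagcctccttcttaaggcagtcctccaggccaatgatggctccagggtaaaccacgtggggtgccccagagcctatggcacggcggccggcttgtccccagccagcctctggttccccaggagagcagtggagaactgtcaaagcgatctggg
Hnf4a upstream start, chr2:163506607-163506906, plus strand: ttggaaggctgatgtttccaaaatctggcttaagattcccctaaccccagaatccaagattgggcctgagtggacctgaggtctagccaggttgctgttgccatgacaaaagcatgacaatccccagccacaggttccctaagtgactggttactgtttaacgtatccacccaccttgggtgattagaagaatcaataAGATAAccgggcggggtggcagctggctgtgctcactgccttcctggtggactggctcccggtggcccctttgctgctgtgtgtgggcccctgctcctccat
Hnf4a downstream start, chr2:163546905-163547204, plus strand: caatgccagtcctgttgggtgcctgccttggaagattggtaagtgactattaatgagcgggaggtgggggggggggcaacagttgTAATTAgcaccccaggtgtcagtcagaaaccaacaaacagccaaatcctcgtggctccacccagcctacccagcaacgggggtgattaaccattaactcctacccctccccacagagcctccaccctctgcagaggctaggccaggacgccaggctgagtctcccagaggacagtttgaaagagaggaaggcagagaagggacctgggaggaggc
Foxa2, chr2:148046920-148047219, minus strand: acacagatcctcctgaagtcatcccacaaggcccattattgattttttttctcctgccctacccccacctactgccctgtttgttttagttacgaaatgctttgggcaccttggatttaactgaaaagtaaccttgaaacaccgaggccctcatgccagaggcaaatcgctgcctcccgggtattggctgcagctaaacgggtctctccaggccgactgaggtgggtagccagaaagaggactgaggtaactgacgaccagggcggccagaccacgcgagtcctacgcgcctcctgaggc
The upstream Hnf4a window held 1 GATA word, and the downstream Hnf4a window held 1 homeodomain word. None of the 4 words occurred in the Pdx1 window or in this Foxa2 window, which says only that these letters are not in these 300 bases. The table holds 2 more Foxa2 windows, further into the gene, and 1 of them held a GATA word.

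Of the 9 genes, 8 had at least 1 count and 6 passed the filter on low counts (Sox9, Hnf4a, Foxa2, Foxa3, Gata6 and Nkx6-1). Pdx1, Onecut1 and Ptf1a did not. In KPC against wild type, edgeR's quasi-likelihood test called 0 of the 6, where 0% of 23046 tested rows were called higher and 0% lower. At an unadjusted p under 0.05 it took 0 of the 6, against 8.67% of all rows. That share also belongs beside the counts at this threshold given for the other lists. DESeq2 and limma voom also called 0 of the 6, while DESeq2 called 1.44% of all rows higher and 1.28% lower. The log2 fold change was positive in 4 of the 6, with a median of 0.67, where 48.8% of all rows were positive and their median was -0.01. Both KPC libraries lay above both wild type libraries in 0 of the 6 (20.6% of all rows) and below in 1, Foxa3 (20.5% of all rows). In the other 5 the groups overlapped.

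**Figure D1:**
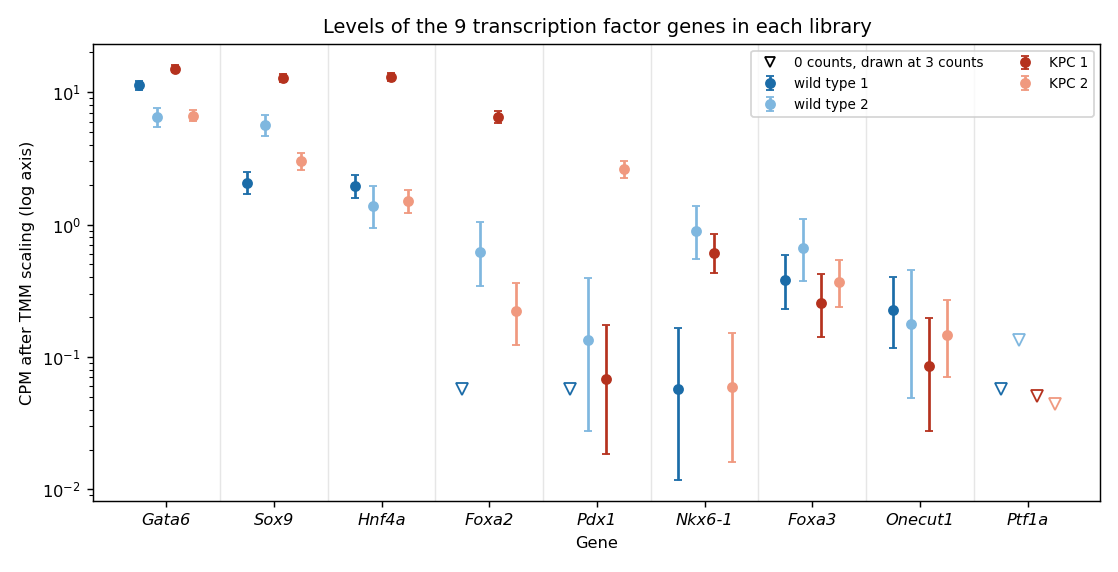
CPM of the 9 genes on a log axis, with points for the 4 libraries and bars for exact 95% Poisson intervals; open triangles mark a count of 0, drawn at 3 counts. Gata6, Sox9, Hnf4a and Foxa2 are highest in KPC 1, whereas Pdx1 is at 2.61 CPM in KPC 2 and at most 0.134 CPM elsewhere.

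Foxa2 and Foxa3 are paralogous forkhead factors that bind closed chromatin. Foxa2 (ENSMUSG00000037025.11, chromosome 2, 148042877 to 148046969 in mm10, minus strand) had 0, 14, 382 and 15 counts. That is 0.626 CPM (interval 0.342 to 1.05) in wild type 2, 6.49 CPM (5.86 to 7.18) in KPC 1 and 0.221 CPM (0.124 to 0.365) in KPC 2. In wild type 1, with 0 counts, the interval reaches 0.0701 CPM. One KPC library was high and the other lay below wild type 2, so the groups overlapped. In bulk RNA, here and below, fewer cells of a type and less RNA per cell cannot be told apart. KPC 1 stood 29.4-fold above KPC 2 (exact conditional 95% interval 17.6 to 53.0), a comparison of those libraries and not of conditions. The wild type mean was 0.313 ± 0.443 CPM and the KPC mean 3.36 ± 4.43 CPM (SD, n = 2 libraries each). The log2 fold change was 3.71 ± 2.14 (SE; edgeR adjusted p = 0.668), and it was -0.26 without KPC 1. The reads in KPC 1 were spread along the gene, covering 2188 of the 4092 bases of the interval, against 2370 bases of annotated exon. Of the 37-base words in Foxa2 transcripts, 2 of 2365 also occur in Foxa1 and none elsewhere, so few reads of that length could have come from the paralog.

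Foxa3 (ENSMUSG00000040891.6, chromosome 7, 19013282 to 19023538, minus strand) was low everywhere, with 20 and 15 counts in wild type and 15 and 25 in KPC. Its levels were 0.380 (0.232 to 0.587) and 0.671 CPM (0.375 to 1.11) in the wild type libraries, against 0.255 (0.143 to 0.420) and 0.368 CPM (0.238 to 0.544) in KPC. Both KPC values were lower, but wild type 1 and KPC 2 differed by far less than their intervals. The log2 fold change was -0.69 ± 0.48 (SE), and Foxa3 did not pass the test (edgeR adjusted p = 0.720). Foxa1, the remaining paralog and no member of the set, had 25, 1, 282 and 30 counts or 0.475, 0.0447, 4.79 and 0.442 CPM. Foxa1 and Foxa2 were thus both highest in KPC 1, and Foxa3 had its lowest level there.

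Hnf4a (ENSMUSG00000017950.16, chromosome 2, 163506808 to 163572910, plus strand) encodes a nuclear receptor that drives lipoprotein and metabolic genes in liver and gut. It had 103 and 31 counts in wild type and 765 and 102 counts in KPC. The levels were 1.96 (1.60 to 2.38) and 1.39 CPM (0.942 to 1.97) in the wild type libraries, 13.0 CPM (12.1 to 14.0) in KPC 1 and 1.50 CPM (1.23 to 1.82) in KPC 2. The intervals of the other 3 libraries overlapped and KPC 1 alone was high, 8.65-fold above KPC 2 (7.03 to 10.7). Hnf4a had a log2 fold change of 2.10 ± 1.02 (SE; edgeR adjusted p = 0.629), and of -0.15 without KPC 1. In KPC 1 the reads covered 6240 bases of the 66102-base interval, at least 1412 more than the 4828 bases of annotated exon, so part of this count lay outside exons. Antisense transcripts overlap this gene, and the counts show no strand.

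Onecut1 (ENSMUSG00000043013.10, chromosome 9, 74861921 to 74891784, plus strand), the duct and endocrine progenitor factor also known as HNF6, had 12 and 4 counts in wild type and 5 and 10 in KPC. No level exceeded 0.228 CPM (0.118 to 0.399 in wild type 1), and all 4 intervals overlapped. Both KPC values lay below both wild type values, but at this depth no difference was detectable. The long noncoding gene Gm20649 overlaps Onecut1 on the same strand and had 12, 7, 10 and 12 counts. Of the 37-base words in Onecut1 transcripts, 52.8% also occur in Gm20649 or Onecut3, so even these few counts are uncertain. Its paralog Onecut2 was the better represented, with 1.64, 2.59, 13.3 and 3.74 CPM and a log2 fold change of 2.02 ± 0.69 (SE; edgeR adjusted p = 0.541).

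Gata6 (ENSMUSG00000005836.10, chromosome 18, 11052510 to 11085635, plus strand), a zinc finger factor of endoderm that is also made by mesothelial and other mesodermal cells, had the highest CPM of the set in all 4 libraries before correction for length. It had 592 and 145 counts in wild type and 889 and 452 in KPC. The levels were 11.3 (10.4 to 12.2) and 6.48 CPM (5.47 to 7.63) in the wild type libraries, against 15.1 (14.1 to 16.1) and 6.66 CPM (6.06 to 7.30) in KPC. Each group held a high and a low library, and the low ones, wild type 2 and KPC 2, were indistinguishable by counting error. For Gata6 the log2 fold change was 0.29 ± 0.50 (SE; edgeR adjusted p = 0.910) and -0.41 without KPC 1. The antisense gene 1010001N08Rik overlaps its 5′ end, with 33, 4, 35 and 20 counts.

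Sox9 (ENSMUSG00000000567.5, chromosome 11, 112782224 to 112787760, plus strand), the HMG box factor of duct cells and of cartilage, had 109 and 126 counts in wild type and 756 and 204 in KPC. The levels were 2.07 (1.70 to 2.50) and 5.63 CPM (4.69 to 6.71) in the wild type libraries, against 12.8 (11.9 to 13.8) and 3.01 CPM (2.61 to 3.45) in KPC. KPC 2 lay between the wild type libraries, and KPC 1 stood 4.27-fold above KPC 2 (3.66 to 5.01). Sox9 had a log2 fold change of 1.06 ± 0.84 (SE; edgeR adjusted p = 0.764), and of -0.34 without KPC 1. Reads covered 4009 of the 5536 bases in KPC 1, close to the 4135 bases of annotated exon.

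Cartilage genes gave a view of the other known side of SOX9. Of 10 partners and cartilage products, 9 were tested, 4 with a positive and 5 with a negative log2 fold change, a median of -0.06, and edgeR called 0, with 1 at an unadjusted p under 0.05. The partner genes Sox5 (9.60 to 14.6 CPM) and Sox6 (3.49 to 6.31 CPM) were present in every library. Acan, which encodes the cartilage proteoglycan aggrecan, had 0.209 and 2.24 against 8.05 and 8.55 CPM. Its log2 fold change was 2.85 ± 1.04 (SE; edgeR adjusted p = 0.563). Acan was thus equally high in both KPC libraries, unlike Sox9. Col2a1, the cartilage collagen gene, was named after its values were seen: it had 650 counts in wild type 1 and 4 or 5 in each of the other libraries.

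Pdx1 (ENSMUSG00000029644.7, chromosome 5, 147269959 to 147278008, plus strand), the homeodomain factor of pancreatic progenitors and beta cells, showed the reverse split between the KPC libraries. It had 0, 3, 4 and 177 counts. The level was 2.61 CPM (2.24 to 3.02) in KPC 2, 0.0680 CPM (0.0185 to 0.174) in KPC 1 and 0.134 CPM (0.0277 to 0.392) in wild type 2. In wild type 1, with 0 counts, the interval reaches 0.0701 CPM. KPC 2 stood 38.4-fold above KPC 1 (14.7 to 142). The reads in KPC 2 covered 2406 bases, more than the 2158 annotated exon bases of GENCODE, whose Pdx1 model ends at 147275848, short of the deposited interval. They were therefore not a pile at 1 spot, and 0 of 2122 words of 37 bases in Pdx1 occur in another transcript. The antisense gene Plut, with no row of its own, overlaps the start of the Pdx1 interval. The counts show no strand, so the part of Plut in them is not known. Pdx1 did not pass the filter on low counts with all libraries in the fit. With no filter its log2 fold change was 4.85 (edgeR adjusted p = 0.554). It also entered edgeR's test with a library left out, but not without KPC 2. The log2 fold change was 3.31 without wild type 1, 9.33 without wild type 2 and 5.75 without KPC 1. Pdx1 passed the filter of these fits only through its count in KPC 2, so the values rest on that library. The value of 9.33 is against a wild type library at 0 counts, depends on the prior count and is no bound.

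Ptf1a (ENSMUSG00000026735.2, chromosome 2, 19445663 to 19447501, plus strand), the basic helix-loop-helix factor of acinar cells, had 0 counts in all 4 libraries. The intervals reach 0.0701, 0.165, 0.0627 and 0.0544 CPM. Acinar products were low but detected, and 13 genes summed to 6.43, 8.85, 10.1 and 9.74 CPM. Cpa1, the acinar carboxypeptidase gene, had 0, 2, 1 and 0 counts. The leading acinar entries were Cela1 (1.05 and 2.19 against 5.40 and 4.85 CPM), Cela2a (1.97 to 3.50 CPM) and Ctrb1 (0.170 to 2.50 CPM). Of 6 tested, 3 had a positive and 3 a negative log2 fold change, the median was 0.01, 2 had an unadjusted p under 0.05, and edgeR called 0.

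Nkx6-1 (ENSMUSG00000035187.10, chromosome 5, 101658139 to 101665226, minus strand), the homeodomain factor of beta cells, had 3 and 20 counts in wild type and 36 and 4 in KPC. The levels were 0.0570 (0.0118 to 0.167) and 0.894 CPM (0.546 to 1.38) in the wild type libraries, against 0.612 (0.428 to 0.847) and 0.0590 CPM (0.0161 to 0.151) in KPC. Each group held 1 library with signal and 1 near the floor, and the log2 fold change was -0.32 ± 1.51 (SE; edgeR adjusted p = 0.975). It was 2.49 without wild type 2, -2.81 without KPC 1 and 0.50 without KPC 2. In wild type 2, islet products summed to 966 CPM against 2.53 to 5.76 CPM in the other libraries, led by Ins2 (229 CPM), Chgb (223 CPM) and Ins1 (215 CPM). Of 13 islet genes, 10 were tested, all with a negative log2 fold change, 9 at an unadjusted p under 0.05 and 0 called by edgeR. The median of the tested genes was -7.19. Without wild type 2 it was -1.39, over the list genes that passed that fit's own filter, which can be other genes. The part of these islet transcripts in the Nkx6-1 level of wild type 2 was not tested. In KPC 1, with a similar Nkx6-1 level, Ins1 had 0 counts and Ins2 had 4.

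Insulin transcripts and Pdx1 were highest in different libraries. In KPC 2, the library with Pdx1, Ins1 and Ins2 had 10 and 13 counts, and Pdx1 had 3 counts in the islet-rich wild type 2 library, which is the shallowest. Of 14 endocrine transcription factor genes, 8 were tested, 2 with a positive and 6 with a negative log2 fold change. Their median was -0.74, 4 had an unadjusted p under 0.05, and edgeR called 0. Without KPC 1 the median over the list genes passing that fit's filter was -0.46. Among the best represented were St18 (3.33 to 4.43 CPM) and Isl1 (4.62 and 2.64 against 2.06 and 1.41 CPM). Neurog3, the endocrine progenitor factor, had 0 counts in every library, a gene named after its values were seen.

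Compared per kilobase of annotated exon, the order of the set changed from library to library. In KPC 1 the levels per kilobase were 3.11 CPM for Sox9 (2.89 to 3.34), 2.74 for Foxa2 (2.47 to 3.03), 2.69 for Hnf4a (2.50 to 2.89) and 2.37 for Gata6 (2.22 to 2.53). Each of these neighbours overlapped the next within counting error. In KPC 2 the order was Pdx1 at 1.21, Gata6 at 1.05, Sox9 at 0.727 and Hnf4a at 0.311 CPM per kilobase. In wild type 1 Gata6 led at 1.77, above Sox9 at 0.501 and Hnf4a at 0.406, and in wild type 2 Sox9 led at 1.36, above Gata6 at 1.02. Gata6 and Sox9 were among the 3 highest in all libraries except KPC 1, where Gata6 was the fourth.

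The contrast between the KPC libraries was set against all rows with a fold of 4 chosen after the values were seen. On log2 CPM with a prior count of 2, 4 of the 6 tested genes (Foxa2, Hnf4a, Nkx6-1 and Sox9) were at least 4-fold higher in KPC 1 than in KPC 2, where 0.807% of all tested rows were. In the reverse direction it was 0 of 6, against 0.855% of all rows, and Pdx1, which was not tested, lay on that side. Between the wild type libraries, Foxa2 and Nkx6-1 were at least 4-fold higher in wild type 2, as were 2.72% of all rows. The opposite difference, wild type 1 above wild type 2, was met by none of the 6 and by 1.91% of all rows. Of the 8 genes with counts, 4 had their highest level in KPC 1, as did 25.5% of all rows.

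**Figure D2:**
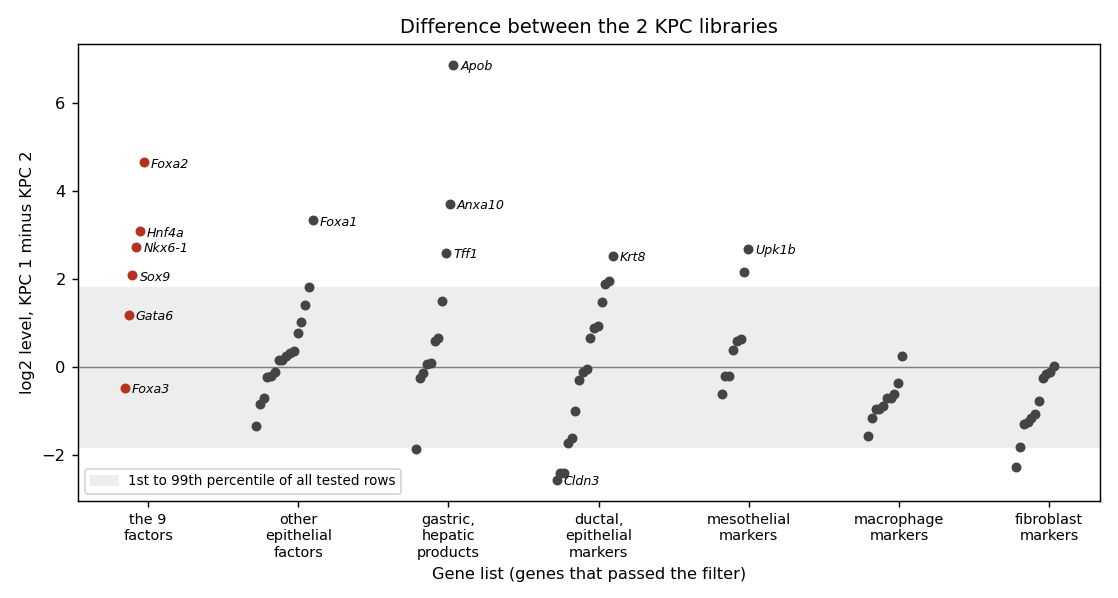
Difference in log2 level between KPC 1 and KPC 2 (vertical axis) for each tested gene of 7 lists (horizontal axis); the grey band spans the 1st to the 99th percentile of all tested rows, -1.82 to 1.80. Foxa2, Hnf4a, Nkx6-1 and Sox9 lie above the band, together with Foxa1, Apob, Anxa10 and others, and ductal markers lie on both sides.

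Of 19 other transcription factor genes of pancreatic and foregut epithelium, 16 were tested, 9 with a positive and 7 with a negative log2 fold change. Their median was 0.43. With any 1 library left out the median was 0.15 to 0.34, over the list genes that passed that fit's filter. That set can differ from the 16, so these values do not isolate the loss of a library. Of the 16, 3 had an unadjusted p under 0.05 (8.67% of all rows) and edgeR called 0. Both KPC libraries lay above both wild type libraries in 4 of the 16 (20.6% of all rows) and below in 5 (20.5% of all rows). The best represented were Hes1, the Notch target gene (38.1 and 35.2 against 27.3 and 24.3 CPM), Onecut2, given above, and Grhl2, an epithelial grainyhead factor (3.84 and 4.38 against 4.15 and 4.85 CPM). Between the KPC libraries, 1 of the 16 (Foxa1) was at least 4-fold apart, and between the wild type libraries 6 of the 16 were, Foxa1 among them. Of all rows, 0.807% were so with KPC 1 higher and 0.855% with KPC 2 higher. Between the wild type libraries the shares were 1.91% (wild type 1 higher) and 2.72% (wild type 2 higher). The difference from the 9 factors was not tested.

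Gastric and hepatic products of foregut epithelium, among them known targets of HNF4A and FOXA factors, had no common peak. The highest level was in wild type 1 for 4 genes, wild type 2 for 5, KPC 1 for 5 and KPC 2 for 3. Of 17 genes, 11 were tested, 6 with a positive and 5 with a negative log2 fold change and a median of 2.11. With any 1 library left out, the median lay between -0.24 (without KPC 1) and 1.21. Those medians cover the list genes that passed each fit's filter. The set of genes can differ from the 11, so these values do not isolate the loss of a library. Of the 11, 3 had an unadjusted p under 0.05 and edgeR called 0. The list summed to 40.2, 29.1, 92.7 and 40.7 CPM. Between the KPC libraries, 3 of the 11 were at least 4-fold higher in KPC 1 and 0 in KPC 2. Of all tested rows, 0.807% and 0.855% were. Its leading gene Ctse, which encodes cathepsin E, was even across libraries (22.5 to 36.1 CPM). Anxa10, a gastric annexin gene, had 0.532, 0.894, 27.3 and 2.06 CPM. Cldn18, a gastric and lung tight junction gene, had 0.570, 0.179, 10.9 and 13.0 CPM. Anxa10 thus had its peak where Hnf4a and Foxa2 had theirs, and Cldn18 did not separate the KPC libraries. Apob, the apolipoprotein gene of liver and gut, was named after its values were seen: 24, 9, 975 and 7 counts, or 16.6 CPM in KPC 1 and at most 0.456 CPM elsewhere. Alb and Ttr, abundant liver products, had at most 14 counts in any library.

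Summed over the list, general epithelial markers were higher in wild type 2 and both KPC libraries than in wild type 1. Not every gene followed. Cftr was highest in wild type 1 (1.12 CPM, against 0.398 to 0.671 CPM elsewhere). St14 (52.3 to 56.9 CPM) and Ocln (2.43 to 2.93 CPM) were even across libraries. The 17 ductal and epithelial genes summed to 119, 810, 2105 and 1568 CPM, led by Spp1, Krt18 and Krt8. Spp1, which macrophages also make, stood at 29.7 and 309 against 860 and 1050 CPM. It made up most of the KPC 2 sum, which therefore says little about the other markers there. The keratin genes Krt8 (0.399, 146, 490 and 85.1 CPM) and Krt18 (21.1, 134, 465 and 121 CPM) were highest in KPC 1. Epcam, in contrast, was higher in KPC 2 (18.1 CPM) and wild type 2 (13.6 CPM) than in KPC 1 (5.40 CPM), and was at 0.190 CPM in wild type 1. Of 16 tested, 14 had a positive log2 fold change and 2 a negative one, 2 had an unadjusted p under 0.05 and edgeR called 0. The median was 1.17. Over the genes passing each fit's filter it was 0.39 without wild type 1, 0.45 without KPC 2 and 5.01 without wild type 2. Their part in the levels of the 9 factors was not tested.

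Mesothelial genes were measured because mesothelium makes GATA6 and keratins. The 9 markers summed to 31.9, 29.2, 119 and 38.3 CPM. Of 8 tested, 5 had a positive and 3 a negative log2 fold change, with a median of 0.73. Of these, 1 had an unadjusted p under 0.05 and edgeR called 0. Over the genes passing each fit's filter, the median was 0.11 without KPC 1 and 0.33 without wild type 1. Msln, the mesothelin gene, stood at 0.837 and 8.72 against 76.6 and 17.2 CPM. Upk1b stood at 16.4 and 8.49 against 17.2 and 2.67 CPM, and Wt1 at 1.01 and 7.24 against 13.2 and 10.1 CPM. Msln made up most of the KPC 1 sum. Upk1b, like Gata6, was higher in wild type 1 and KPC 1 than in the other libraries, while Msln shared with Sox9 a peak in KPC 1 and a low in wild type 1. The list had no common pattern. Gpm6a was highest in wild type 1 (9.93 CPM, at most 0.413 CPM elsewhere). Cdh3 had 3.06 and 3.04 against 10.2 and 6.82 CPM. The part of mesothelial cells in these levels was not tested, and no defining marker of them was at 0 in any library.

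Endothelial and Schwann cell markers were highest in wild type 1. The 8 endothelial genes, led by Emcn, Plvap and Pecam1 (247, 188 and 106 CPM in wild type 1), summed to 748 CPM in wild type 1 and to 18.6 to 43.6 CPM in the other libraries. The 6 Schwann genes, among them Ngfr and Sox10 (15.1 and 2.93 CPM in wild type 1), summed to 26.7 CPM in wild type 1 and to 0.840 to 3.67 CPM elsewhere. The same library had the least Sox9 and no count of Foxa2 or Pdx1. Of 8 and 5 tested, all had a negative log2 fold change, 6 and 4 had an unadjusted p under 0.05, and edgeR called 0 of either. Their medians were -3.52 and -5.36. Over the list genes passing the filter without wild type 1, the medians were -0.89 and -1.31. Macrophage markers, led by Lyz2 (6.24, 132, 629 and 1415 CPM), Itgam (43.6 to 81.2 CPM) and Csf1r (10.1 to 45.3 CPM), had a positive log2 fold change in 10 of 10 (median 2.74), with 9 at an unadjusted p under 0.05, and edgeR called 0. They were highest in KPC 2 in 9 of the 10, the library with Pdx1, and not in KPC 1.

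**Figure D3:**
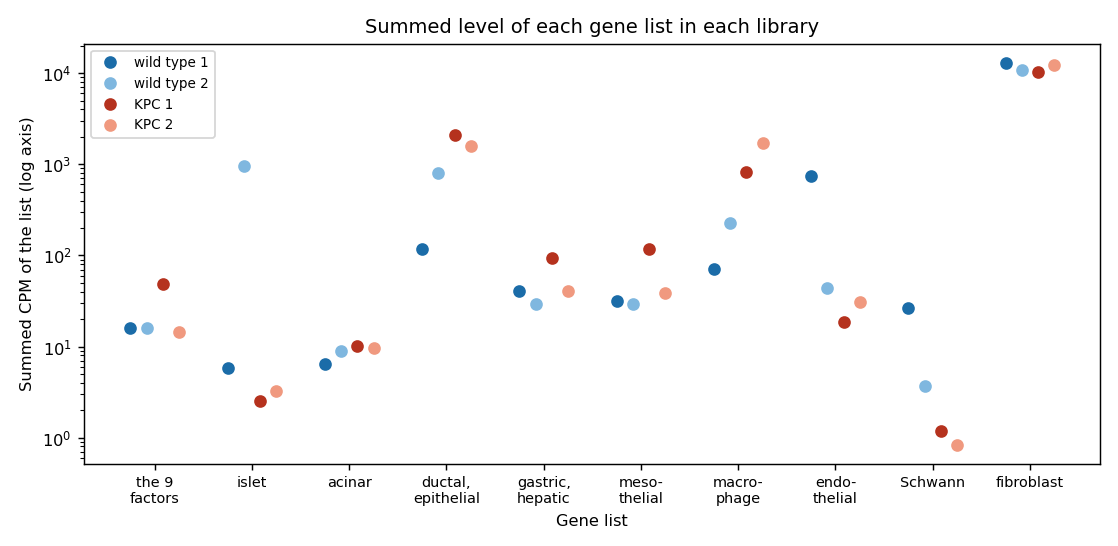
Summed CPM (log axis) of 10 gene lists in the 4 libraries. The 9 factors sum to 48.5 CPM in KPC 1 and to 14.6 to 16.0 CPM in the others, and the islet list stands out in wild type 2, the endothelial and Schwann lists in wild type 1.

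For each tested gene, the rows whose profile over the 4 libraries was most alike were found among 18305 rows averaging at least 1 CPM, by the root mean square difference of mean-centred log2 CPM. Nearest to Sox9 were the collagen gene Col27a1 (0.15), the desmosomal cadherin gene Dsg2 (0.21) and the fatty acid transporter gene Slc27a6 (0.22), and 6 rows lay within 0.25. Nearest to Hnf4a were Clic6 (0.15), S100a7a (also 0.15) and the zinc transporter gene Slc39a4 (0.17), with 4 rows within 0.25. These profiles were rare among all rows, which restates their large differences between libraries and is no separate result. Foxa2 had 0 rows within 0.25, and its nearest were the neuropeptide gene Npy (0.45), 1600029D21Rik (0.52) and the cytokine gene Csf2 (0.54). Nkx6-1 also had 0, with Ctsw (0.52), Tnfsf15 (0.65) and Nppb (0.74) as nearest. The profiles of Foxa3 and Gata6 had more rows near them: 523 rows lay within 0.25 of Foxa3, led by 5330417C22Rik, Mir671 and Scn7a (all at 0.05), and 225 within 0.25 of Gata6, led by Acp6 (0.05), Abca2 (0.06) and Met (0.08). With 4 points, likeness of this kind describes these libraries alone.

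Leaving out each library in turn showed how far the comparison of KPC with wild type rested on single libraries. The log2 fold change was positive with all 4 libraries and negative without KPC 1 for Sox9, Hnf4a, Foxa2 and Gata6. For Gata6 it was also -0.05 without wild type 2. Foxa3 kept a negative value in every such fit, from -1.09 to -0.28. The lone library left in a group was assumed to vary like the other group. List medians without a library cover the genes that passed that fit's filter, so the set of genes can differ between fits.

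**Figure D4:**
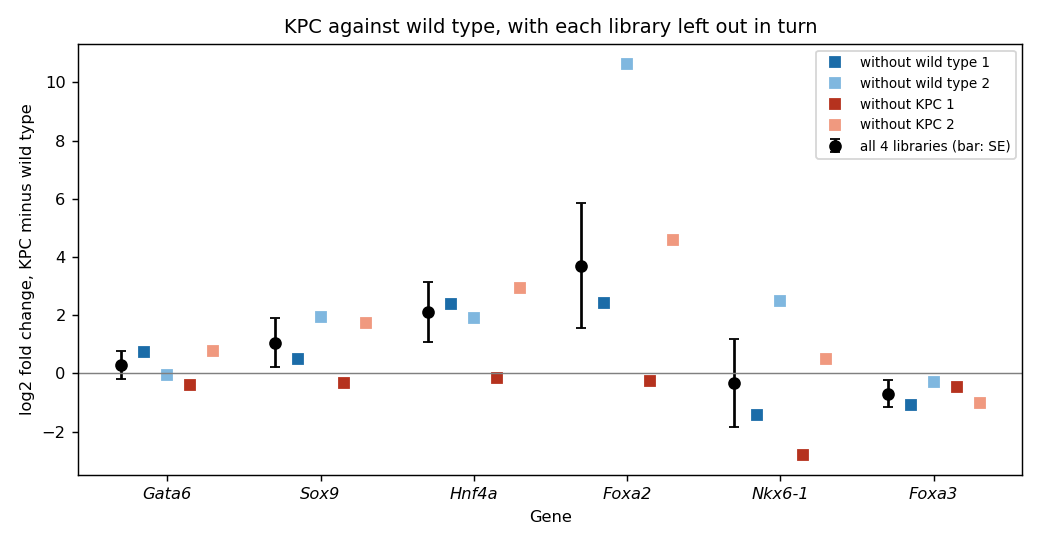
Log2 fold change of KPC minus wild type (vertical axis) for the 6 tested genes, with all 4 libraries (black, bar: SE) and without each library (squares). Sox9, Hnf4a, Foxa2 and Gata6 turn negative without KPC 1, and the Foxa2 value without wild type 2 rests on a wild type library with 0 counts.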

How the data were processed

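Poly-A RNA was sequenced as single reads of 50 bases, per the labels' protocols. Per the submitters' processing notes, TopHat2 2.0.3, bedtools, SAMtools 0.1.18 and FastQC 0.10.1 were used with mm10/GRCm38, in roles they do not give. The authors deposited for each sample a raw read count per gene interval, read as such from the whole-number values, and the fraction of bases covered. Of rows with a count of 1, 82.8% covered 37 bases.

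Members and gene lists were chosen with earlier results of these data known. Scripts were tested on simulated data. edgeR 4.0.16 (R 4.3.3) used filterByExpr (minimum count 10), TMM and the two-sided quasi-likelihood test, with Benjamini-Hochberg adjustment over 23046 rows at 0.05. DESeq2 1.42.0 and limma 3.58.1 (voom) were alternatives. The standard error (SE) was computed from the log2 fold change and the F statistic. Exon lengths, overlaps and shared 37-base words came from GENCODE M21 (GRCm38). All 9 members were named, and of the 12 other lists the 3 genes of highest mean CPM; 147 of 147 entries had a row, 1 by an older symbol. Foxa1, Cpa1, Epcam, Cftr, St14, Ocln, Apob, Alb, Ttr, Col2a1, Neurog3, Dcn, Lum, Thy1, Gpm6a and Cdh3 were named after their values were seen. Some genes of these lists are not reported here by name. Promoters were searched for 4 motif words; 4 others (for ONECUT, SOX and basic helix-loop-helix factors and the TATA box) were dropped after their matches had been seen. All counts touching antisense, overlapping or paralogous genes are uncertain. An exact permutation test of 2 libraries against 2 cannot reach 0.05 and was not used.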

Additional observations from a re-analysis of the deposited data

How the results depend on the processing

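No alternative called any of the 9 genes at an adjusted p of 0.05, in edgeR with other scaling (RLE, upper quartile or none), other filters, or each library left out, or in DESeq2 and limma voom. Without each library in turn, the log2 fold change ran from -0.34 to 1.93 for Sox9, -0.15 to 2.94 for Hnf4a, -0.26 to 10.64 for Foxa2, -1.09 to -0.28 for Foxa3, -0.41 to 0.76 for Gata6 and -2.81 to 2.49 for Nkx6-1. The value of 10.64 has a wild type library at 0 counts, depends on the prior count and is no bound. Nkx6-1 also turned to 0.050 with limma voom. Under the other alternatives, directions were kept. When 1 CPM in 2 libraries was required, 3 of the genes remained to be tested (Sox9, Hnf4a and Gata6). CPM over the plain library total stayed within the counting interval for all 36 levels, and summing rows changed nothing, since each symbol has 1 row.

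The labels number the replicates 1 and 2 in both groups without saying what they share. The deviations of libraries 1 correlated at 0.136, and with 2 pairs this does not establish pairing. With the replicate block, edgeR called 0 genes of all rows and the log2 fold change was 0.87 for Sox9, 1.51 for Hnf4a, 2.79 for Foxa2, -0.72 for Foxa3, 0.24 for Gata6 and -0.27 for Nkx6-1.

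Over all rows, edgeR called 0 with all libraries, 429 higher and 406 lower without wild type 2, and 0 and 5 without wild type 1; DESeq2 called 333 and 294. Depth limits Onecut1, Foxa3, Nkx6-1 and Ptf1a, at 36 counts or fewer in every library.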
